A study of Mus musculus with 24 samples.

Results

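The genes described here encode the proteasome and the factors that assemble, cap and regulate it. They were taken from the count table by symbol: every protein-coding gene whose name starts with Psm, a letter from a to g and a number, together with the assembly factor Pomp and the transcription factor Nfe2l1. This gave 52 of 24537 genes, of which 20709 are protein-coding. Paaf1, which the same rule asked for, was not analysed here. The 31 standard subunits of the 26S particle comprised 7 of the alpha ring and 7 of the beta ring of the 20S core, 6 ATPases and 11 non-ATPases of the 19S cap. The others were 2 tissue-restricted core subunits, 3 inducible catalytic subunits (Psmb8, Psmb9 and Psmb10), 3 chaperones of the 19S, 5 chaperones of the 20S, 6 activators and inhibitors, Nfe2l1, and Psmc3ip, a recombination factor that the naming rule caught although it is not part of the particle.

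RNA was sequenced from whole extensor digitorum longus (EDL), a fast-twitch muscle, and whole soleus (SOL), a slow-twitch muscle. All mice were 2 months old and carried 4Fhet, that is a doxycycline-responsive cassette of Oct4, Sox2, Klf4 and c-Myc (OSKM) and rtTA transactivator and GFP transgenes behind a LoxP-STOP-LoxP block. All received doxycycline (Dox) at 1 mg/ml in drinking water for 2.5 days, 5.5 days or 8.5 days. In Acta1-Cre+/4Fhet mice (Cre+) the Cre recombinase is driven by the skeletal actin promoter and removes the block in myofibers, and in Acta1-Cre-/4Fhet mice (Cre-, the controls) the block stays. Cre+ mice thus differ from the controls in Cre, rtTA and GFP as well as in OSKM, which cannot be told apart here. Each muscle, genotype and duration had 2 libraries, 24 in all. The study describes them as biologically independent samples. Myofibers are the cells in which OSKM is induced, but the RNA came from all cells of the muscle, so that fewer cells of a type and less RNA per cell cannot be told apart.

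The proteasome degrades proteins tagged with ubiquitin. The 20S core is a barrel of stacked rings, in which alpha subunits guard the entrance and the beta subunits Psmb5, Psmb6 and Psmb7 cut, and the 19S cap binds ubiquitin chains and unfolds the substrate with its ring of ATPases. Interferon exchanges the cutting subunits for Psmb8, Psmb9 and Psmb10, which favours peptides for antigen presentation. Nfe2l1 raises the transcription of most subunits together when proteasome capacity runs short. In skeletal muscle the same machinery carries out much of the breakdown of myofibrillar protein during atrophy.

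The libraries held 36.1 to 54.7 M counts in genes (median 44.2 M). Of the 4 factors, Pou5f1 (Oct4) reached 15.3 to 66.4 FPKM in the Cre+ EDL at 2.5 and 8.5 days and 4.54 to 11.4 in the Cre+ SOL, and was at most 0.0941 in every Cre- library. At 5.5 days it was 1.07 and 29.4 in the Cre+ EDL and 0.0812 and 0.400 in the Cre+ SOL. The submitters treated that day as an outlier, so 5.5 days has its own fit and is described last. Summed markers of fast fibres (5 genes) were lower in the Cre+ EDL (29420 to 40549 FPKM at 2.5 and 8.5 days) than in the Cre- EDL (50539 to 62178), and scaling factors by the trimmed mean of M-values (TMM) were 1.07 to 1.21 and 0.921 to 0.980 in the same libraries. Summed endothelial markers (5 genes, 3 called lower, against 10.2% of all genes tested) were 74.6 to 83.6 in the Cre+ EDL and 113 to 124 in the Cre- EDL at 2.5 days. Summed liver transcripts (5 genes) were 18.9 and 93.6 in the Cre- SOL at 8.5 days and at most 7.0 in the other EDL and SOL groups of 2.5 and 8.5 days. Their part in the results below was not tested. FPKM is fragments per kilobase of exon, scaled to depth, here with TMM-scaled library sizes, so that levels can be compared between genes.

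The standard 26S subunits were abundant and steady. Their mean level over the 24 libraries ran from 45.7 FPKM for Psma3, an alpha-ring subunit, to 228 FPKM for Psmb7, the beta subunit with trypsin-like activity, a range of 4.99-fold. The core subunits had a median mean level of 112 FPKM and the cap subunits one of 85.3 FPKM, from 48.8 for the deubiquitinase Psmd14 to 175 for the ATPase Psmc3. The coefficient of variation over the 24 libraries had a median of 12.4% among the 31 subunits, compared with 26.8% among all 15478 genes tested and 21.4% among the 1399 genes at or above the level of the lowest standard subunit. Psma6 varied least (9.26%) and Psmd8, a subunit of the lid of the 19S cap, varied most (38.9%). Replicates could still differ by a common shift: all 31 standard subunits were higher in replicate 2 than in replicate 1 of the Cre- EDL at 2.5 days, by a median of 0.19 on the log2 scale. Of the 52 members, 50 passed the filter on low counts. Psma8, the alpha subunit of testis, was at 0 to 0.0955 FPKM and Psmb11, the beta subunit of thymic epithelium, at 0 to 0.00557 FPKM.

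Single members of the family differed between Cre+ and Cre- mice in the EDL. To be called, a gene had to move by over 0.5 on the log2 scale in either direction and have an adjusted p below 0.05 (edgeR's quasi-likelihood F test, Benjamini-Hochberg adjustment over every gene tested). At 2.5 days 4 of the 50 members tested rose (Psmg4, Psmd8, Psmd10 and Psmf1) and 2 fell (Psma3 and Psme1). These are 8% and 4% of the members tested, and 13.8% of all genes tested were called higher and 10.2% lower. None of the 3 inducible subunits was among them. At 8.5 days 2 members rose (Psmd8 and Psmg4) and 1 fell (Psma3), against 7.63% and 6.5% of all genes tested. Without Cre+ replicate 2 at 2.5 days 3 members were called (Psma3, Psmd8 and Psmg4), without Cre+ replicate 1 10 were, and without Cre+ replicate 1 at 8.5 days Psmd8 was the 1 left. The median log2 fold change of the 31 standard subunits was -0.03 at 2.5 days and 0.03 at 8.5 days, and that of all genes tested was -0.05 and -0.02. Scaling by library size alone, without TMM, moved the median of all genes by 0.33 at 2.5 days and turned the calls into 14 higher and 0 lower. At 8.5 days this shift was 0.18 and the calls became 5 higher and 0 lower. With that scaling 10792 of all 15372 genes tested had a positive change at 2.5 days, and 9913 at 8.5 days. The share of all genes called with it is not given here, so these calls cannot be set against it. Fold changes are given below with TMM, that is relative to the bulk of the genes.

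Psmd8 showed the largest rise among the standard subunits. It encodes Rpn12, which joins the lid of the 19S cap late in assembly (mm10 chr7:29174187-29180673, minus strand). In the EDL its level at 2.5 days was 97.9 and 117 FPKM in the Cre- libraries and 209 and 172 FPKM in the Cre+ libraries. At 8.5 days it was 93.3 and 102 FPKM in the Cre- and 250 and 303 FPKM in the Cre+ libraries. The genotypes did not overlap on either day, and the highest control stayed well below the lowest Cre+ library. The log2 fold change was 0.82 (SE 0.19, adjusted p = 0.0068) at 2.5 days and 1.52 (SE 0.19, adjusted p = 0.00032) at 8.5 days, a 2.87-fold rise. Without Cre- replicate 1 the change at 2.5 days was 0.70 with an adjusted p of 0.071. The change at 8.5 days exceeded that at 2.5 days by 0.70 (SE 0.27), which did not pass the test (edgeR, adjusted p = 0.43). In the SOL the level was 109 and 120 FPKM in the Cre- and 189 and 126 FPKM in the Cre+ libraries at 2.5 days. There it was 96.2 and 106 FPKM in the Cre- and 177 and 151 FPKM in the Cre+ libraries at 8.5 days. Both Cre+ libraries lay above both controls on each day in the SOL as well. The log2 fold changes in the SOL were 0.48 (SE 0.19, adjusted p = 0.3) and 0.70 (SE 0.19, adjusted p = 0.23), and the difference between the muscles at 8.5 days was 0.82 (SE 0.27, adjusted p = 0.26), none of which passed the test.

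Psmg4 rose the most of all members at 2.5 days. It encodes PAC4, a small chaperone that works with Psmg3 on the alpha ring (chr13:34162964-34178172, plus strand). The EDL held 6.94 and 5.76 FPKM in the Cre- and 15.2 and 18.7 FPKM in the Cre+ libraries at 2.5 days, and 7.36 and 6.69 FPKM against 11.9 and 11.1 FPKM at 8.5 days. Its counts were low for this family, from 133 to 548 per library. The log2 fold change was 1.41 (SE 0.18, adjusted p = 0.00016) and then 0.73 (SE 0.18, adjusted p = 0.014). At 8.5 days the call was lost on the adjusted p without Cre+ replicate 1 (0.69) and without Cre- replicate 2 (0.66). It was also lost on the 4 libraries of that comparison alone, with edgeR (0.75, adjusted p = 0.0876) and with DESeq2 (0.73, adjusted p = 0.0735). The SOL controls already held 12.2 and 12.7 FPKM at 2.5 days, above both EDL controls, and the Cre+ SOL held 9.78 and 10.8 FPKM. Psmg4 was the member whose response passed the test of a difference between muscles, as the change in the EDL exceeded that in the SOL by 1.66 (SE 0.25, adjusted p = 0.0047) at 2.5 days. This was 1 of 50 members called higher and 0 called lower, against 3.36% and 0.891% of all genes tested. Without EDL Cre+ replicate 1 there were 2, with Psmc1. Both fold changes and the difference between control muscles use the same control libraries. Psmg3, its partner, had a log2 fold change of 0.39 (SE 0.16, adjusted p = 0.095) in the EDL at 2.5 days, and the 3 other chaperones of the core did not pass the test either. Among these, Pomp, which guides the assembly of the beta ring and was the most abundant, held 93.7 and 107 FPKM in the Cre- and 101 and 101 FPKM in the Cre+ EDL at 2.5 days (0.01, adjusted p = 0.97).

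Psma3 was the core subunit called lower in the EDL. It encodes the alpha7 subunit (chr12:70974623-70995877, plus strand). In the EDL it was at 54.7 and 56.8 FPKM in the Cre- and 36.9 and 35.9 FPKM in the Cre+ libraries at 2.5 days. The values at 8.5 days were 61.3 and 53.2 FPKM in the Cre- and 32.8 and 40.4 FPKM in the Cre+ libraries. Every Cre+ library lay below every control, and the log2 fold change was -0.62 on both days (SE 0.12, adjusted p = 0.0026 and 0.0049). Leaving out Cre+ replicate 1 at 8.5 days made it -0.48 with an adjusted p of 0.0776. With library size alone the changes were -0.29 at 2.5 days and -0.45 at 8.5 days, still negative but below the threshold. On the 4 EDL libraries of 8.5 days alone, edgeR gave -0.61 with an adjusted p of 0.0973. The SOL held 48.4 and 52.3 FPKM in the Cre- and 40.7 and 39.7 FPKM in the Cre+ libraries at 2.5 days, and 40.9 and 37.8 FPKM against 36.0 and 38.4 FPKM at 8.5 days, where the groups overlapped. Psma3 was not called in the SOL. The core subunits Psmb2 and Psmb6 were also lower in the EDL at 2.5 days and passed there on the adjusted p alone, not on the fold. Psmb2 was at 91.7 and 110 FPKM in the Cre- and 77.7 and 75.0 FPKM in the Cre+ libraries.

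**Figure D1:**
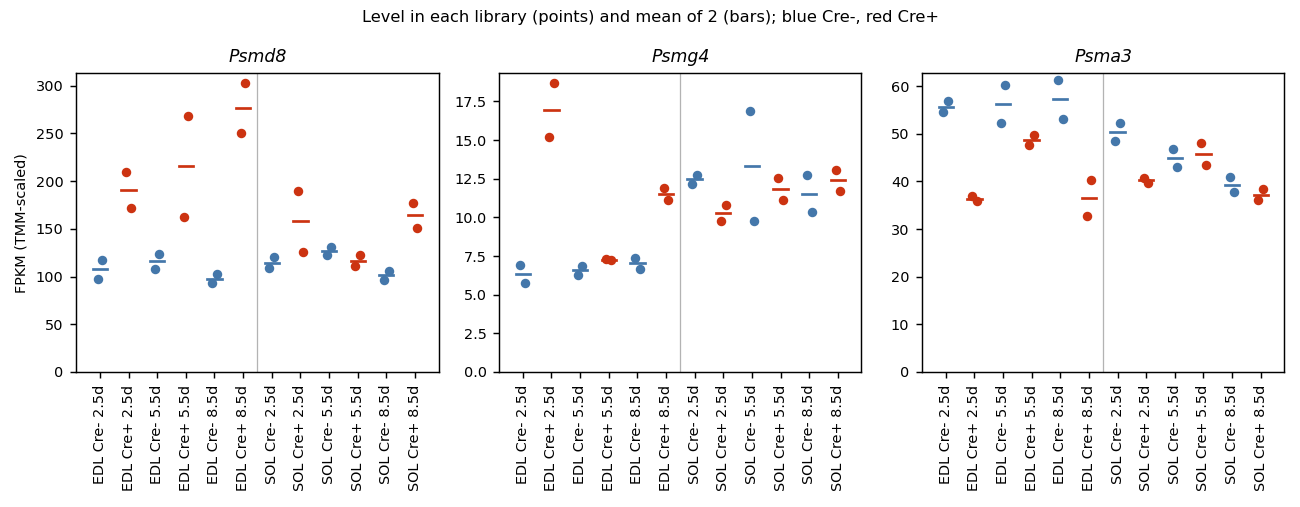
Level of Psmd8, Psmg4 and Psma3 in each library (FPKM with TMM-scaled library size, linear axes from 0), with points for libraries, bars for the mean of 2, blue for Cre- and red for Cre+. Psmd8 in the Cre+ EDL reaches 303 FPKM where no control exceeds 131, Psmg4 peaks at 18.7 FPKM in the Cre+ EDL at 2.5 days, and Psma3 in the Cre+ EDL lies at 32.8 to 40.4 FPKM at 2.5 and 8.5 days.

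The upstream sequences of these 3 genes are shown because they moved apart from the other subunits, next to Psmb5 and Psmb6, whose windows hold a match to the antioxidant response element, the motif of Nfe2l1. Each line gives the 150 bases before the RefSeq start site in GRCm38.p6, 5′ to 3′ on the strand of the gene, with matches to TGACNNNGC (antioxidant response element) or CCAAT (NF-Y box) in capitals. The positions are Psmd8 at chr7:29180674-29180823 (minus), Psmg4 at chr13:34162814-34162963 (plus), Psma3 at chr12:70974473-70974622 (plus), Psmb5 at chr14:54617996-54618145 (minus) and Psmb6 at chr11:70525207-70525356 (plus).
Psmd8: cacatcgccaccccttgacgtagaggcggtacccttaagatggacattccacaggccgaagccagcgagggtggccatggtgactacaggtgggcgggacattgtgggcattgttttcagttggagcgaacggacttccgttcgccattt
Psmg4: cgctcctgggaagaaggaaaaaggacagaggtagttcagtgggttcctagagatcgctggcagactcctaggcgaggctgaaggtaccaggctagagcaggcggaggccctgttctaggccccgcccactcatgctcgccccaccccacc
Psma3: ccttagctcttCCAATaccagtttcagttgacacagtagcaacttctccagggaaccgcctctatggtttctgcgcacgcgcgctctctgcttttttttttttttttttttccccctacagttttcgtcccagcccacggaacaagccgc
Psmb5: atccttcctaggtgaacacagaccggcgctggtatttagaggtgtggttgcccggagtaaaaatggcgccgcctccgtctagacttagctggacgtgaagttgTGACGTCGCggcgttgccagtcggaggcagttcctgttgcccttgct
Psmb6: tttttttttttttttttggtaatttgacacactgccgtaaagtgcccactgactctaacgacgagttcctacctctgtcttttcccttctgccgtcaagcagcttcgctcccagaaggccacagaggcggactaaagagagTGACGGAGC
The element begins 47 bases before the start of Psmb5 and 9 bases before that of Psmb6. A CCAAT match begins 139 bases before the start of Psma3. No motif searched was found in the window of Psmd8.

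Promoter windows of 250 bases before and 50 bases after the start were available for 44 of the 52 members, 38 of them at the deposited start site. Both strands were searched. TGACNNNGC occurred in 6 of the 44 (13.6%) and in 12.5% of all 27025 windows, and among the 25 standard subunits with a window it was found for Psmb5, Psmb6, Psmc6 and Psmd12. The E-box CACGTG, which c-Myc can bind, occurred in 4 members (9.09%) and 7.24% of all windows, among the standard subunits in Psma4 alone. CCAAT was found in 15 members (34.1%) and 37.9% of all windows, and TTCNNNGAA, the core of a gamma-activated site, in 3 members (6.82%) and 8.47%. An interferon-stimulated element, spelled GAAA, any 2 bases and GAAA again, occurred in 5 members (11.4%) and 3.49% of all windows, 15 bases after the start in Psmg4 and also in the standard subunits Psmb3 and Psmd4. These are matches of letters and not measured sites.

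Of the other called members, Psme1 and Psmf1 act on the ends of the core. Psme1 encodes PA28alpha, which forms with Psme2 the cap that interferon induces (chr14:55578494-55581527). It was at 37.1 and 38.8 FPKM in the Cre- and 24.2 and 23.7 FPKM in the Cre+ EDL at 2.5 days, a log2 fold change of -0.67 (SE 0.16, adjusted p = 0.0085). The call was lost on the adjusted p without Cre+ replicate 2 (-0.64) or Cre- replicate 2 (-0.64). It was also lost in the fit of all 24 libraries (-0.66, edgeR adjusted p = 0.117) and with library size alone (-0.34, adjusted p = 0.133). Psme1 overlaps Emc9 on the opposite strand, and whether the counting used strand is not stated, so reads of the 2 genes may not be separated. At 8.5 days its log2 fold change was -0.33 (adjusted p = 0.19). Psme2, its partner, stood at 27.0 and 27.7 FPKM in the Cre- and 29.8 and 23.98 FPKM in the Cre+ EDL at 2.5 days, so the groups overlapped.

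Psmf1, the inhibitor PI31, was at 6.12 and 6.70 FPKM in the Cre- and 8.72 and 9.76 FPKM in the Cre+ EDL at 2.5 days (log2 fold change 0.52, SE 0.14, edgeR adjusted p = 0.014). It is named here because it was called, which the rule for named genes did not ask for. Psmd10 (gankyrin), a chaperone of the ATPase ring, was at 6.17 and 6.98 FPKM in the Cre- and 8.88 and 10.3 FPKM in the Cre+ EDL (0.53, SE 0.16, adjusted p = 0.029). Both lay just over the fold threshold, and both lost the call without Cre- replicate 1 (0.46 for Psmf1 and 0.45 for Psmd10) or Cre+ replicate 2 (0.45 and 0.44), as Psmd10 did without Cre- replicate 2. On the 4 libraries alone Psmd10 lost the call with edgeR (0.56, adjusted p = 0.0756) and with DESeq2 (0.57, adjusted p = 0.0552). Psmf1 lost it there with edgeR (0.54, adjusted p = 0.0505). Just under the threshold was Psmc1, an ATPase of the cap, with 95.7 and 119 FPKM in the Cre- and 123 and 181 FPKM in the Cre+ EDL (0.50, SE 0.16, adjusted p = 0.035). Psmc1 was called by DESeq2 on the same libraries (0.52, adjusted p = 0.0121), by edgeR with DESeq2 size factors (0.52, adjusted p = 0.0308), with library size alone (0.84, adjusted p = 0.0026) and in the fit of all 24 libraries (0.50, adjusted p = 0.0166), and without Cre+ replicate 1 (0.74) or Cre- replicate 2 (0.66). Psme4 (PA200), the most abundant activator in the EDL, held 57.7 and 39.5 FPKM in the Cre- and 59.6 and 65.5 FPKM in the Cre+ libraries at 8.5 days (0.39, SE 0.17, adjusted p = 0.139). It was called without Cre- replicate 1 (0.69, adjusted p = 0.0209) and with library size alone (0.56, adjusted p = 0.0419).

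The medians of the core and the cap subunits had opposite signs in the EDL. Of the 14 core subunits, 11 had a negative fold change in the EDL at 2.5 days, with a median of -0.22, and 10 of them lay below both controls in both Cre+ libraries, against 34.2% of all genes tested. Of the 17 cap subunits, 11 had a positive fold change, with a median of 0.09, and 4 lay above both controls, against 30.9% of all genes. At 8.5 days the medians were -0.14 and 0.12. Then 7 core subunits lay below both controls, against 28.7% of all genes, and 8 cap subunits above them, against 25%. Summed over the 17 cap subunits, the Cre- EDL held 1502 and 1770 FPKM at 2.5 days and 1318 and 1549 FPKM at 8.5 days. The Cre+ EDL held 1796 and 1784 FPKM, and then 1645 and 1762 FPKM. Replicate 1 was the lower control on each day, and the cap medians were not computed without it. With library size alone the core medians became 0.11 at 2.5 days and 0.04 at 8.5 days, and the cap medians 0.42 and 0.31, so the sign of the core medians turned with the scaling and their place below the cap medians did not. Relative to all genes tested, whose medians were then 0.28 and 0.16, the core stayed below and the cap above. In the beta ring 6 of 7 subunits and in the alpha ring 5 of 7 had a negative change at 2.5 days. The largest in the beta ring was that of Psmb6 (-0.45, SE 0.15, adjusted p = 0.039), which passed on the p-value and not on the fold. The beta-ring subunit with the largest change at 8.5 days was Psmb3 (-0.30, adjusted p = 0.12), and among the ATPases it was Psmc6 (-0.36, adjusted p = 0.13), which was called without Cre- replicate 2 (-0.59, adjusted p = 0.016). Psma6 and Psmc3, the most abundant alpha subunit and ATPase, had log2 fold changes of -0.11 and -0.03 at 2.5 days.

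A ratio of sums needs no scaling between libraries, and was added after the values had been seen. The summed FPKM of the 14 core subunits over that of the 17 cap subunits was 1.07 and 1.01 in the Cre- and 0.840 and 0.822 in the Cre+ EDL at 2.5 days. At 8.5 days it was 1.21 and 0.990 in the Cre- and 0.789 and 0.850 in the Cre+ EDL. Over both days the Cre+ EDL gave 0.825 ± 0.0268 and the Cre- EDL 1.07 ± 0.101 (SD, n = 4 libraries each), and the libraries of the genotypes did not overlap. The SOL gave 0.932 ± 0.0172 in the Cre+ and 1.05 ± 0.0568 in the Cre- libraries, again without overlap on those days. Leaving out Psmd8, the values were 0.954 ± 0.0508 and 1.15 ± 0.111 in the EDL and 1.04 ± 0.0315 and 1.13 ± 0.0638 in the SOL. At 5.5 days the full ratio was 0.970 and 0.975 in the Cre- and 0.964 and 0.854 in the Cre+ EDL. In the SOL of 5.5 days it was 1.03 and 0.938 in the Cre- and 1.05 and 0.994 in the Cre+ libraries. The control at 0.938 lay inside the Cre+ SOL range of 2.5 and 8.5 days (0.915 to 0.950). Core genes are shorter (723 to 2385 bases of exon, median 1008) than cap genes (1264 to 3229, median 1548). The 758 tested genes in the length span of the core that were at least as abundant as the lowest standard subunit had a median log2 fold change of -0.17 in the EDL at 2.5 days, and the 658 such genes in the span of the cap one of -0.19. The corresponding medians were both -0.08 at 8.5 days. Genes of 1264 to 2385 bases are in both spans, so these medians cannot show whether the difference of core and cap follows exon length.

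**Figure D2:**
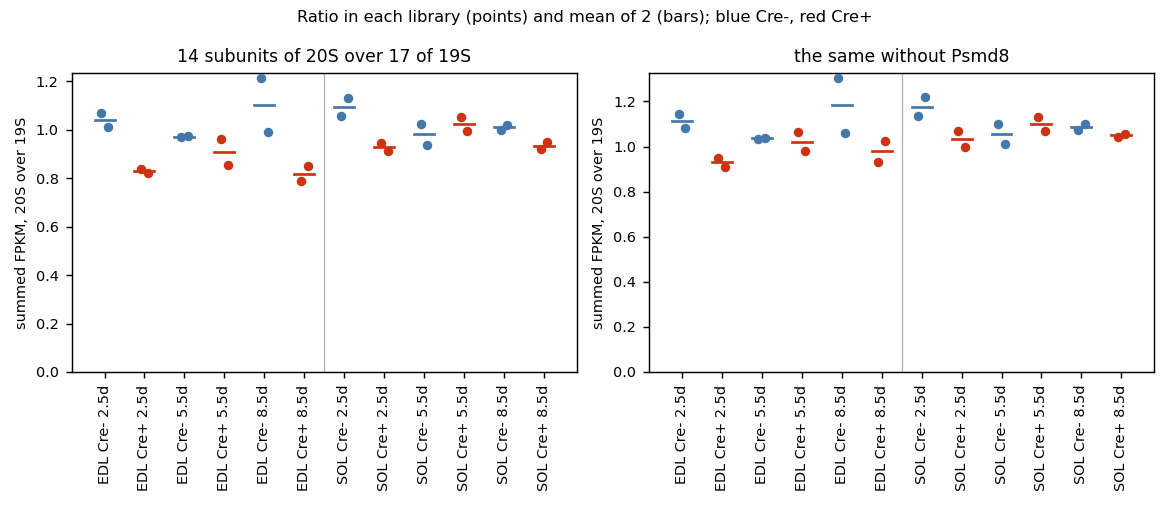
Summed FPKM of the 14 core subunits divided by that of the 17 cap subunits in each library (left) and the same without Psmd8 (right), with points for libraries, bars for the mean of 2, blue for Cre- and red for Cre+, on linear axes from 0. At 2.5 and 8.5 days the Cre+ points lie below the Cre- points of the same muscle, at 0.825 against 1.07 in the EDL and 0.932 against 1.05 in the SOL.

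None of the standard catalytic beta subunits was called in the EDL. Psmb5, which carries the chymotrypsin-like activity, was at 119 and 134 FPKM in the Cre- and 115 and 104 FPKM in the Cre+ EDL at 2.5 days, and at 111 and 110 FPKM against 101 and 115 FPKM at 8.5 days. Psmb6, the caspase-like subunit, was at 191 and 209 FPKM in the Cre- and 158 and 135 FPKM in the Cre+ EDL at 2.5 days. Psmb7 was at 258 and 276 FPKM in the Cre- and 219 and 203 FPKM in the Cre+ EDL. Psmb6 and Psmb7 lay below both controls there, with log2 fold changes of -0.45 (adjusted p = 0.039) and -0.35 (adjusted p = 0.075). Without Cre+ replicate 1, Psmb6 was called (-0.58, edgeR adjusted p = 0.0324).

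The inducible subunits were far scarcer. Psmb10 was at 7.98 and 9.88 FPKM in the Cre- and 13.8 and 15.1 FPKM in the Cre+ EDL at 2.5 days, and at 10.3 and 9.73 FPKM against 19.7 and 14.6 FPKM at 8.5 days. Its log2 fold changes of 0.69 (SE 0.30, adjusted p = 0.11) and 0.80 (SE 0.30, adjusted p = 0.089) did not pass edgeR's test, although both Cre+ libraries lay above both controls on each day. It was called at 8.5 days by DESeq2 on the same libraries (adjusted p = 0.0453) and at 2.5 days by edgeR on the 4 libraries of that comparison alone (0.71, adjusted p = 0.0433). Psmb8 was at 5.70 and 5.33 FPKM in the Cre- and 5.54 and 2.94 FPKM in the Cre+ EDL at 2.5 days, and Psmb9 at 2.40 and 2.80 FPKM against 3.96 and 1.52 FPKM. Both overlapped between genotypes. At 8.5 days they held 6.42 and 7.17 FPKM against 9.72 and 6.70 FPKM (Psmb8) and 3.22 and 3.94 FPKM against 5.62 and 3.76 FPKM (Psmb9). The inducible subunits made up 2.75 and 2.83% of the summed catalytic levels in the Cre- and 4.53 and 4.23% in the Cre+ EDL at 2.5 days, and 3.55 and 3.99% against 7.73 and 4.84% at 8.5 days. Over both days this was 5.33 ± 1.62% in the Cre+ and 3.28 ± 0.596% in the Cre- EDL (SD, n = 4 libraries each), without overlap on those days. At 5.5 days the share was 4.59 and 2.94% in the Cre- and 4.00 and 3.11% in the Cre+ EDL. The control at 4.59% lay above both Cre+ EDL libraries of 2.5 days.

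Of 10 other genes of antigen presentation, 0 passed edgeR's test in the EDL on either day. On the 2 days 1 and 0 had an unadjusted p under 0.05, against 39% and 29.8% of all genes tested. Their medians were -0.08 and 0.34. Tapbp, which loads peptides onto class I molecules, had 0.49 (SE 0.19, adjusted p = 0.0757) at 2.5 days, and was called there by DESeq2 on the same libraries (0.50, adjusted p = 0.0498) and, on the 4 libraries of the comparison alone, by edgeR (0.51, adjusted p = 0.0441) and DESeq2 (0.52, adjusted p = 0.0156). The summed level of the 10 genes at 8.5 days was 299 to 313 FPKM in the Cre- and 320 to 449 FPKM in the Cre+ EDL. Summed leukocyte markers (9 genes, 0 called) were 86.9 to 95.8 FPKM in the Cre- and 97.5 to 116 FPKM in the Cre+ EDL at 8.5 days, and 40.5 to 61.3 and 32.2 to 58.8 FPKM at 2.5 days, and their part in the level of the inducible subunits was not tested. Lyz2 made up most of each of these leukocyte sums. In the SOL the inducible share overlapped between genotypes, with 6.66 ± 3.08% in the Cre+ and 4.78 ± 1.14% in the Cre- libraries. It rested there on the Cre+ library of 8.5 days, replicate 1, at 11.2%. Without it the difference of 1.88 percentage points fell to 0.350. That library held 16.4, 11.4 and 26.8 FPKM of Psmb8, Psmb9 and Psmb10, its antigen presentation genes summed to 687 FPKM, and its leukocyte markers to 90.7 FPKM, below the 104 FPKM of its replicate. Lyz2 alone gave 71.9 and 82.3 FPKM of these leukocyte sums.

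**Figure D3:**
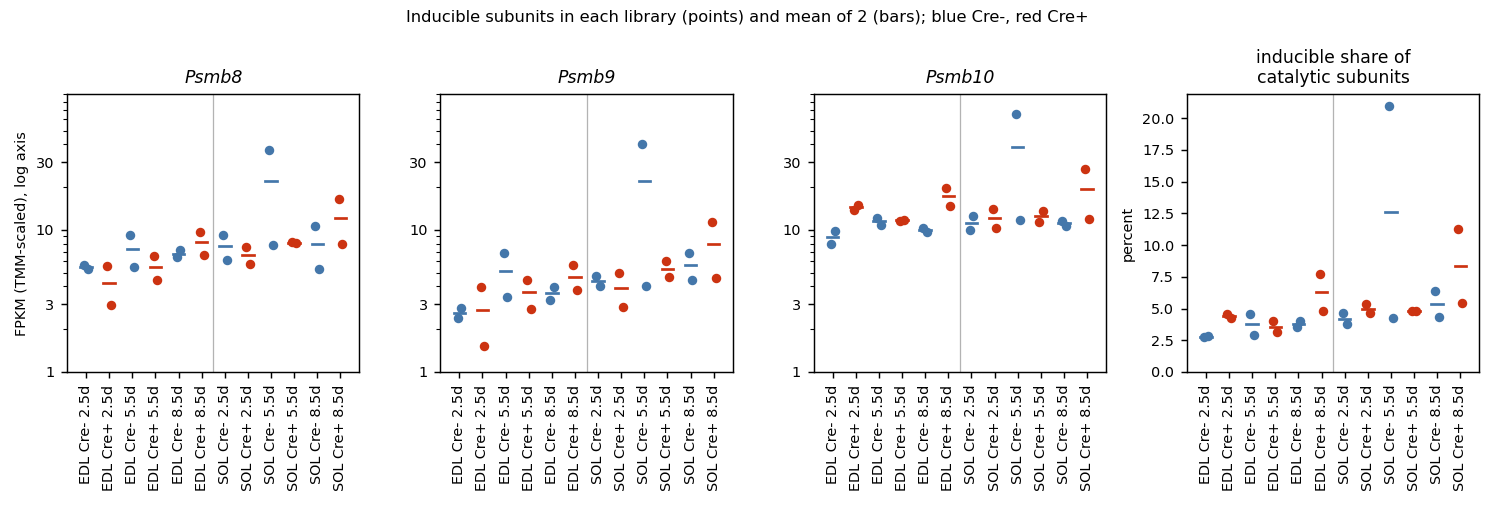
Level of the inducible subunits Psmb8, Psmb9 and Psmb10 in each library (FPKM with TMM-scaled library size, log axes) and their share of the summed levels of the 6 catalytic subunits (percent, linear axis from 0), with points for libraries, bars for the mean of 2, blue for Cre- and red for Cre+. The Cre+ EDL lies at 4.23 to 7.73% at 2.5 and 8.5 days against 2.75 to 3.99% in its controls, and 1 control SOL library of 5.5 days reaches 21.0%.

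Nfe2l1, the regulator, was among the most abundant members and was not called in any comparison with TMM. With library size alone it was called in the EDL at 2.5 days and, in the controls, for EDL over SOL. The EDL held 185 and 176 FPKM in the Cre- and 200 and 219 FPKM in the Cre+ libraries at 2.5 days (log2 fold change 0.21, SE 0.14, edgeR adjusted p = 0.28), and 250 and 221 FPKM against 253 and 277 FPKM at 8.5 days (0.19, adjusted p = 0.39). Nfe2l1 is made in the endoplasmic reticulum, pulled out of it by Vcp and cut by the protease Ddi2 before it enters the nucleus. Of 10 genes of this route, Ddi2 was the one called in the EDL at 2.5 days, where 13.8% of all genes tested were called higher and 10.2% lower. Ddi2 was at 16.3 and 18.2 FPKM in the Cre- and 8.44 and 7.34 FPKM in the Cre+ EDL at 2.5 days, and at 18.6 and 19.998 FPKM against 10.9 and 9.52 FPKM at 8.5 days. Its log2 fold changes were -1.14 (SE 0.15, adjusted p = 0.00024) and -0.90 (SE 0.15, adjusted p = 0.0021). The SOL held 8.13 and 6.64 FPKM in the Cre- and 6.46 and 7.66 FPKM in the Cre+ libraries at 2.5 days, and the difference between the changes of the muscles was -1.09 (SE 0.22, adjusted p = 0.016). In the controls Ddi2 was higher in the EDL than in the SOL by 1.04 (SE 0.11, adjusted p = 1.3e-05), a comparison on the same control libraries. At 8.5 days Sel1l, of the degradation machinery of the endoplasmic reticulum, also rose (0.51, SE 0.11, adjusted p = 0.0093). It was named after its value was seen.

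Among 23 ubiquitin and proteasome partners, 1 rose and 2 fell in the EDL at 2.5 days, with a median of 0.11, and 0 rose and 1 fell at 8.5 days, with a median of 0.02. Of all genes tested, 13.8% were called higher and 10.2% lower at 2.5 days, and 7.63% and 6.5% at 8.5 days. AI314180 (Ecm29), which clamps the core and the cap together, fell on both days (-0.82, SE 0.18, adjusted p = 0.0049, and -0.63, SE 0.18, adjusted p = 0.03). Its call at 2.5 days was lost without Cre+ replicate 2 (-0.73, adjusted p = 0.0558) and with library size alone (-0.49, adjusted p = 0.0596). Its call at 8.5 days was lost without Cre- replicate 1 (-0.25, adjusted p = 0.318), Cre+ replicate 1 (-0.58, adjusted p = 0.197) or Cre+ replicate 2 (-0.69, adjusted p = 0.083), on the 4 libraries alone (adjusted p = 0.189 with edgeR and 0.0834 with DESeq2), with library size alone (-0.46, adjusted p = 0.113) and with the replicate number as a block (adjusted p = 0.0522). The others called at 2.5 days, named after their values were seen, were Zfand5, an activator of the 26S particle (-0.69, adjusted p = 0.0045), and Nploc4, a cofactor of Vcp (0.50, adjusted p = 0.0072). Rps27a, the most abundant of those named from the list, had a log2 fold change of 0.47 at 2.5 days (SE 0.14, adjusted p = 0.0229), under the fold threshold, and was called without Cre+ replicate 1 (0.51, adjusted p = 0.0381) and with library size alone (0.80, adjusted p = 0.0018). The ligases of atrophy Trim63 and Fbxo32 were not called in the EDL, with log2 fold changes of 0.20 and -0.35 at 2.5 days and 0.09 and -0.58 at 8.5 days. Fbxo32 at 2.5 days rested on 1 library: it was -0.96 (adjusted p = 0.0243) without Cre+ replicate 1 and 0.08 without Cre+ replicate 2. With library size alone Trim63 was called at 2.5 days (0.53, adjusted p = 0.0254).

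In the SOL, 0 of the 50 members were called at 2.5 days, with edgeR and with DESeq2. An unadjusted p under 0.05 was found for 9 members, against 13.4% of all genes tested. Of all genes tested, 0.345% were called higher and 0.039% lower there. At 8.5 days 0 members were called with edgeR and 1, Psmd8, with DESeq2, against 0.332% and 0.299% of all genes called higher and lower with edgeR. An unadjusted p under 0.05 was found for 2 members, against 6.6% of all genes. Without Cre+ replicate 2 of that day, edgeR called 1 member, Psmb10. All 14 core subunits had a negative fold change in the SOL on both days, with medians of -0.28 and -0.08, against 0.02 and -0.01 for all genes tested. The 758 abundant genes in the length span of the core had SOL medians of -0.22 and -0.05, and the 658 in the span of the cap, which overlaps it, had -0.16 and -0.04. At 2.5 days 12 of the 14 core subunits lay below both controls, against 24.4% of all genes, and at 8.5 days 5 did, against 19.9%. Above both controls were 3 of the 50 members at 2.5 days (24.5% of all genes) and 4 at 8.5 days (19.2%). Medians for the 17 cap subunits were -0.04 and -0.03. With library size alone the core medians in the SOL were -0.13 and -0.04, with 11 of 14 negative on each day. The 2 SOL control libraries of 2.5 days held 160 and 191 FPKM of Psmb6 and the Cre+ libraries 156 and 126 FPKM. At 8.5 days they held 146 and 156 FPKM against 149 and 148 FPKM, inside the range of the controls. The difference between the muscles at 8.5 days was called for 0 members with edgeR and with DESeq2, against 0.533% of all genes called higher and 0.0585% lower. For that difference 3 members had an unadjusted p under 0.05, against 11.2% of all genes. Between 8.5 and 2.5 days in the EDL 0 members were called by either tool, as were 0% of all genes in either direction. Between these days 2 members had an unadjusted p under 0.05, against 9.56% of all genes.

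The controls of both muscles were then compared. In the Cre- mice, over 2.5 and 8.5 days, 1 member was higher in the EDL than in the SOL and 2 were lower, against 10.8% and 11.1% of all genes tested, and 0 of the 31 standard subunits were called by edgeR (6 at an unadjusted p under 0.05, against 41.7% of all genes tested), nor by DESeq2. Their median difference was -0.01. On the adjusted p alone, with no limit on the fold, 9 members passed, against 32% of all genes tested. Among them were the standard subunits Psma3 (0.36, adjusted p = 0.0064), Psmb1 (-0.32, adjusted p = 0.0044) and Psmd6 (0.29, adjusted p = 0.0334). Slow-fibre markers, all 5 lower in the EDL with a median of -5.97, separated the muscles on the same libraries. Psme4 (chr11:30771775-30880361), a large activator that caps the core without ATP, was at 72.3, 64.9, 57.7 and 39.5 FPKM in the control EDL and at 35.7, 40.8, 22.2 and 25.03 FPKM in the control SOL, a difference of 0.96 (SE 0.12, adjusted p = 5.2e-05). The lowest EDL library was just below the highest SOL library, but within each day the muscles did not overlap. Psmg4 was lower in the EDL (-0.82, SE 0.13, adjusted p = 0.00029), and so was Psme1 (-0.56, SE 0.11, adjusted p = 0.0024), at 36.7 to 38.8 FPKM against 43.4 to 65.5 FPKM. Nfe2l1 was lower by 0.44 (SE 0.10, adjusted p = 0.0036), under the fold threshold. With library size alone 1 member was higher and 4 were lower, Nfe2l1 and Psmd5 being added. With EDL and SOL of the same number paired, Psmb9 was also called lower in the EDL (-0.67, SE 0.20, adjusted p = 0.0285, against -0.69 and an adjusted p of 0.15 without the pairing).

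**Figure D4:**
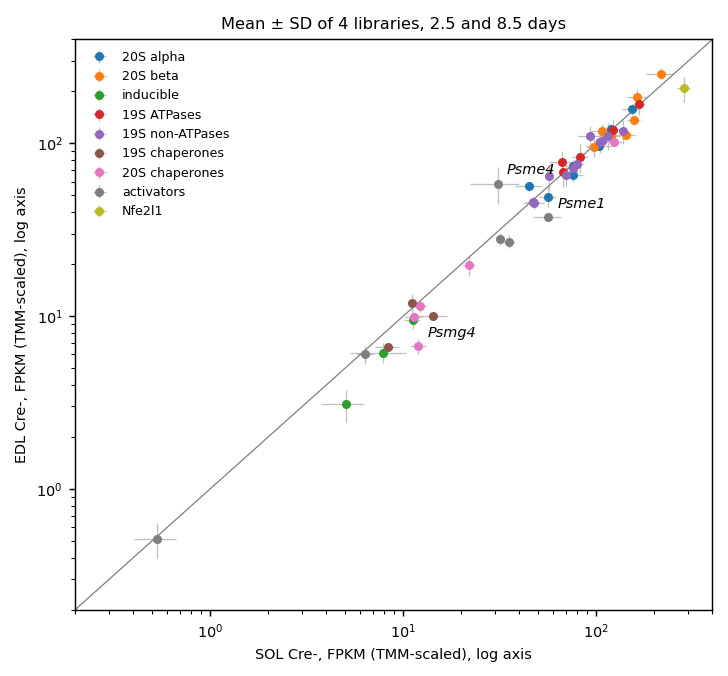
Mean level of each member tested other than Psmc3ip in control EDL (vertical) against control SOL (horizontal) in FPKM with TMM-scaled library size on log axes, with bars of 1 SD over 4 libraries of 2.5 and 8.5 days, colours for roles and a line of equal levels. The standard subunits lie along the line, Psme4 above it, and Psme1 and Psmg4 below it.

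At 5.5 days 0 members were called in either muscle by edgeR. In the EDL and the SOL 2 and 7 members had an unadjusted p under 0.05, against 8.44% and 3.86% of all genes tested. Without SOL Cre- replicate 2 there were 3 in the SOL (Psmb10, Psme1 and Psme2, all lower). DESeq2 called Psmd8 in the EDL and 0 members in the SOL. Of all genes, 0.258% were called higher and 0.0452% lower in the EDL, and 0% in either direction in the SOL. Psmd8 in the EDL was at 108 and 124 FPKM in the Cre- and 163 and 268 FPKM in the Cre+ libraries (0.89, SE 0.21, edgeR adjusted p = 0.094). Without Cre+ replicate 1, which held 1.07 FPKM of Pou5f1 where its replicate held 29.4, the log2 fold change was 1.21. On the other days Pou5f1 did not order Psmd8 between replicates. In the Cre+ EDL, Pou5f1 at 15.3 and 58.5 FPKM went with Psmd8 at 209 and 172 FPKM at 2.5 days. At 8.5 days 66.4 and 53.6 FPKM went with 250 and 303 FPKM. In the Cre+ SOL, 4.54 and 8.63 FPKM went with 189 and 126 FPKM at 2.5 days, and 11.4 and 6.09 FPKM with 177 and 151 FPKM at 8.5 days. Psmg4 at 5.5 days was at 6.26 and 6.88 FPKM in the Cre- and 7.32 and 7.21 FPKM in the Cre+ EDL. In the SOL, control replicate 1 stood apart with 36.5, 40.1 and 65.1 FPKM of Psmb8, Psmb9 and Psmb10 against 7.86, 4.00 and 11.8 FPKM in control replicate 2, and with 116 and 85.8 FPKM of Psme1 and Psme2 against 40.8 and 37.5 FPKM. Its antigen presentation genes summed to 1084 FPKM, against at most 687 in the other libraries, and its leukocyte markers to 70.5 FPKM, inside the range of the others. Lyz2 alone gave 57.8 FPKM of the latter sum, which therefore says little about the scarcer markers. Among these, Cd3e was at 0.238 FPKM against 0.0705 FPKM in control replicate 2, and Cd68 at 3.98 FPKM against 4.20 FPKM. The part of leukocytes was not tested. The fold changes of Psmb8, Psmb9 and Psmb10 in the SOL at 5.5 days were -1.45, -2.05 and -1.62 with that library and 0.05, 0.42 and 0.08 without it.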

How the data were processed

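Reads from 24 libraries were aligned by the authors to mm10 with STAR 2.5.3a after FastQC 0.11.2, and reads aligned uniquely to RefSeq exons were counted with HOMER; use of strand is not given in the sources used here. The deposited values are raw counts per gene, and all columns were used (0 unmapped). Levels are FPKM from the counts, the deposited exon lengths and TMM-scaled library sizes. Counts were tested with edgeR 4.0.16 in R 4.3.3 (TMM, filterByExpr with a minimum count of 10, quasi-likelihood, Benjamini-Hochberg) in 1 fit of the 16 libraries of 2.5 and 8.5 days with 8 group means (15372 genes) and, for 5.5 days, of all 24 with 12 (15478 genes). Groups come from the sample titles. All Cre+ over Cre- comparisons of a day, the differences between muscles and EDL over SOL share the Cre- libraries. With 2 libraries per group, p-values measure the spread between these libraries. Each SE was taken from the test, as the absolute log2 fold change divided by the square root of F. It therefore rests on the dispersion shared over the groups of the fit and not on the libraries of the comparison alone.

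Members, lists and tests were chosen with earlier results of these data known. Named genes were Nfe2l1, Pomp, the catalytic subunits, in each role the most abundant member and the one with the largest change in EDL at 2.5 and at 8.5 days, members called in SOL, at 5.5 days or in a difference of changes, the extremes of EDL over SOL, members failing the filter, and of each other list the 2 most abundant genes and the 2 with the largest change in EDL at 2.5 days. Deviations of same-numbered EDL and SOL libraries correlated in all 6 pairs of groups (r from 0.173 to 0.445). Those of Cre+ and Cre- libraries did not (-0.169 to 0.0578). Number was therefore taken to pair the muscles in an alternative fit. The main fits had no pairing and treated all libraries as independent. The scripts were tested on simulated data. Alternatives were DESeq2 1.42.0, other scalings, filters, thresholds and sets of libraries, a block for replicate number (replicate block), and fits that each lacked 1 library. Promoter windows come from RefSeq (GRCm38.p6). Some genes of the other lists that this rule selects are not reported here.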

Additional observations from a re-analysis of the deposited data

Results flagged for a closer look

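The values of 3 results stood apart. In the 4 Cre- SOL libraries of 2.5 and 8.5 days, Psmd5, a chaperone of the ATPase ring, was at 18.2 FPKM in replicate 2 of 8.5 days and at 12.6 to 13.5 FPKM in the others, a gap to its neighbour that is large for its range by Dixon's test. That library also held the most liver transcripts, summing to 93.6 FPKM against 18.9 FPKM in replicate 1 of that day. Their part in the level of Psmd5 was not tested. In the 4 Cre+ SOL libraries the inducible share of the catalytic subunits was 11.2% in replicate 1 of 8.5 days and 4.61 to 5.41% in the others, by the same test. Among 50 groups of 4 tested in this way 2 stood apart, and chance gives about 2.5. The change of Psmg4 at 2.5 days differed between the muscles by 1.66 on the log2 scale (edgeR, adjusted p = 0.0047), with both Cre+ libraries above both controls in the EDL and below them in the SOL.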

How the results depend on the processing

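When libraries were scaled by their size only, without TMM, which moves the median of all genes by 0.33 in the EDL at 2.5 days and 0.18 at 8.5 days, the members called were 14 and 5, and 5 for EDL over SOL, 3 for the difference between muscles at 2.5 days and 1 in the EDL at 5.5 days. The shares of all genes called with this scaling are not given here. The median change of the standard subunits was then 0.30 and 0.21 in the EDL, -0.0051 in the SOL at 2.5 days, 0.27 and 0.23 for the differences between muscles, -0.065 between days and 0.11 in the EDL at 5.5 days. This scaling turned the sign of genes that did not pass the test: in the EDL at 2.5 days Psmb5 (0.12), Psma6 (0.23), Psmb3 (0.078), Psmc3 (0.30), Psme2 (0.30), Keap1 (0.27), H2-D1 (0.21) and H2-K1 (0.080), at 8.5 days Pomp (0.12), Psmb5 (0.17), Psma6 (0.067) and Keap1 (0.12), in the SOL at 2.5 days Nfe2l1 (0.11), Psmf1 (0.12), Rps27a (0.076) and Ddi2 (0.11), and in the EDL at 5.5 days Nfe2l1 (0.14), Pomp (0.10), Psmb5 (0.068), Psmb6 (0.050), Psma6 (0.080), Psmb3 (0.038), Psmc3 (0.12), Psmc6 (0.093) and Psmf1 (0.035). Other settings changed counts of calls by over 1.5 times in few cases, whose cause was not tested unless the setting is itself a threshold or a smaller set of libraries: DESeq2 called 1 in the SOL at 8.5 days, 2 for the difference at 2.5 days and 1 in the EDL at 5.5 days, the 24-library fit 2 for that difference, no filter 1 in the EDL at 5.5 days, and the 4 libraries alone 1 in the EDL at 8.5 days with edgeR, and with DESeq2 1 in the EDL at 5.5 days and 1 in the SOL at 8.5 days. Without a fold limit 10 were called in the EDL at 2.5 days and 9 for EDL over SOL, against 27.6% and 32% of all genes tested. With a limit of 1 these counts were 1 and 0, and 1 in the EDL at 8.5 days.

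Leaving out each library in turn gave 3 to 10 calls in the EDL at 2.5 days, 1 to 4 at 8.5 days, 0 to 1 at 5.5 days, 0 in the SOL at 2.5 days, 0 to 1 at 8.5 days, 0 to 3 at 5.5 days, 3 to 4 for EDL over SOL, 1 to 2 and 0 for the differences between muscles, and 0 between days. The median of the standard subunits ranged from -0.14 to 0.087, -0.038 to 0.096 and -0.13 to 0.048 in the EDL at 2.5, 8.5 and 5.5 days, -0.19 to -0.081, -0.066 to 0.0059 and -0.093 to -0.035 in the SOL, -0.069 to 0.025 for EDL over SOL, -0.0069 to 0.22 and 0.0045 to 0.18 for the differences and -0.023 to 0.18 between days. Changes that took either sign were, in the EDL at 2.5 days, Psmb9 -0.78 to 0.61, Fbxo32 -0.96 to 0.084, at 8.5 days Vcp -0.077 to 0.63, Maff -0.21 to 0.92, Trim63 -0.14 to 0.36, at 5.5 days Nfe2l1 -0.21 to 0.17, Psme4 -0.39 to 0.11, Rps27a -0.059 to 0.30, Trim63 -0.12 to 0.25, and in the SOL at 5.5 days Pomp -0.21 to 0.19, Psmb8 -2.16 to 0.052, Psmb9 -2.91 to 0.42, Psmb10 -2.38 to 0.083, Psmd5 -0.10 to 0.20, Psmd10 -0.057 to 0.27, Psmg4 -0.51 to 0.28, Psme1 -1.28 to 0.23, Psme2 -1.15 to 0.047, and at 8.5 days Psmb9 -0.30 to 1.02, Psmd5 -0.35 to 0.16, Psmd10 -0.18 to 0.30, Psme1 -0.33 to 0.13, Psme2 -0.027 to 0.57, Ddi2 -0.22 to 0.092, B2m -0.067 to 0.89, H2-D1 -0.064 to 0.65, Tapbp -0.0397 to 0.35, H2-K1 -0.18 to 0.84.

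With the replicate number as a block, 6 and 3 members were called in the EDL at 2.5 and 8.5 days, as without it, and the pairing of EDL with SOL raised the count for EDL over SOL from 3 to 4 and changed no other call. With 2 libraries per group, a member that was not called is not shown to be unchanged.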
